A study of Mus musculus with 9 samples.

Results

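Chemokines are small secreted proteins that direct leukocyte migration, and 9 of their genes are described here in mouse liver: Ccl2, Ccl3, Ccl4, Ccl5, Ccl7, Cxcl1, Cxcl9, Cxcl10 and Cxcl16. The genes were chosen by name, with every array probe that carries their symbol, and all 9 were tested, of 16792 genes tested and 27656 named genes on the array. Livers came from male C57BL/6 mice aged 3 months in 3 groups of 3 arrays. Untreated livers are replicates 2, 3 and 4, livers treated with AAV-GFP are replicates 1, 2 and 3, and livers treated with AAV-hGRβ are replicates 1, 2 and 3. AAV is an adeno-associated virus vector that carries a gene into cells, GFP is a fluorescent protein used as a vector control, and hGRβ is the β splice isoform of the human glucocorticoid receptor, which lacks the hormone binding of the α isoform. Vector serotype, promoter, dose and the time between treatment and sampling are not given in the sources used here, and no probe used here measures GFP or hGRβ, so the vector labels were not checked through the transgenes.

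CC chemokines such as Ccl2 and Ccl7 attract monocytes through Ccr2, and Ccl3, Ccl4 and Ccl5 attract T cells, NK cells and macrophages, with Ccr1 among the receptors of Ccl3 and Ccl5. Among the CXC chemokines, Cxcl9 and Cxcl10 are induced by interferons and act on Cxcr3 of activated T and NK cells, Cxcl1 attracts neutrophils through Cxcr2, and Cxcl16 is a membrane-bound ligand of Cxcr6 that is shed from the cell surface. In liver these ligands can come from hepatocytes, Kupffer cells, endothelial and stellate cells and from leukocytes themselves. Their genes are known for promoters that respond to NF-κB, interferon-activated factors and AP-1, and glucocorticoids acting through the α isoform repress many of them.

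Signals were measured on single-colour Agilent arrays, in which spot brightness follows the amount of labelled RNA. The scanner software called 54.0% to 82.0% of an array's gene spots well above background. Median processed intensity ran from 37.7 to 79.0. Each of the 14 hepatocyte markers found on the array was above background on at least 1 array of every group. The 9 arrays lay on 5 slides scanned on 2 days. The second scan day held untreated replicate 2, AAV-GFP replicate 3 and AAV-hGRβ replicate 1, and each group therefore spans both days. Only 1 slide held arrays of more than 1 group. Values below are log2 signals relative to the array's 75th percentile, and a difference of 1 is a doubling. Each gene's level is read from its own probe and is not set against that of another gene, except in the summed levels of marker lists. Those sums add probes of different genes, so the brightest probes weigh most in them. In whole liver, fewer cells of a type and less RNA per cell cannot be told apart.

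RefSeq promoter sequence (GRCm38.p6) was available in the tables used for 4 of the 9 genes: Ccl3, Cxcl1, Cxcl9 and Cxcl10. The 200 bases before each gene's start are shown for these 4 because no others were available, and the genes were not picked by their values. Capitals mark matches to the NF-κB (κB) consensus and to the core GAAANNGAA of the interferon-stimulated response element (ISRE), on either strand.
Ccl3, chr11:83649379-83649578, minus strand: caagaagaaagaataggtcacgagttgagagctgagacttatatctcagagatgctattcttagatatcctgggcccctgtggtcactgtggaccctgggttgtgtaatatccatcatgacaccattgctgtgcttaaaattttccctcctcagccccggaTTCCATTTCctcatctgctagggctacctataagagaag
Cxcl1, chr5:90891045-90891244, plus strand: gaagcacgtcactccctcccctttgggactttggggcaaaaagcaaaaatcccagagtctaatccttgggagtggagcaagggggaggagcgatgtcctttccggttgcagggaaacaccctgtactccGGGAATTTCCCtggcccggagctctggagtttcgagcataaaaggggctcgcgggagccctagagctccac
Cxcl9, chr5:92328080-92328279, minus strand: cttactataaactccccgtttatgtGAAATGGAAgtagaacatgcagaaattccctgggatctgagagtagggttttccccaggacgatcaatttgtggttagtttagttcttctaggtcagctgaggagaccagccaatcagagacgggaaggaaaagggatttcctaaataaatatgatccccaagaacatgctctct
Cxcl10, chr5:92348890-92349089, minus strand: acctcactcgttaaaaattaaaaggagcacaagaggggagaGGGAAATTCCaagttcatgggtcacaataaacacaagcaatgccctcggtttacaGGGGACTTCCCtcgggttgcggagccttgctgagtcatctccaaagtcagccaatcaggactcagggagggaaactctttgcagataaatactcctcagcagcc

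Counted over the 250 bases before the start, the κB consensus was found in 2 of the 4 promoters, Cxcl1 (bases -71 to -62 and, overlapping on the opposite strand, -70 to -61) and Cxcl10 (-159 to -150 and overlapping matches between -104 and -94), and in 7.25% of 32851 promoters. The ISRE core was found in 3 of the 4, Ccl3 (-39 to -31, opposite strand), Cxcl9 (-175 to -167) and Cxcl10 (-213 to -205, just outside the printed stretch), and in 7.13% of all promoters. The interferon-gamma activated element TTCNNNGAA was in none of the 4 and in 7.02% of all, and the AP-1 motif TGANTCA was in 1, Cxcl10 (-74 to -68), and in 6.75% of all. The glucocorticoid receptor hexamer AGAACA was in 1, Cxcl9 (-164 to -159 and -14 to -9), and in 16.1% of all. These are matches of letters on both strands, described for 4 genes. Binding was not measured, and a link between the matches and the levels of the genes was not tested.

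In AAV-hGRβ liver 5 of the 9 chemokine genes rose against AAV-GFP liver, namely Ccl4, Ccl5, Ccl7, Cxcl9 and Cxcl10, by 3.21-fold to 9.24-fold, and none fell. Over all genes tested 0.822% were called higher and 0.0774% lower in this comparison (limma, Benjamini-Hochberg adjusted p under 0.05). All 9 differences were above 0, with a median of 1.77 on the log2 scale beside 0.02 over all genes. For 7 of the 9, every AAV-hGRβ array was above every AAV-GFP array, against 9.44% of all genes. The same 7 genes were also higher on each AAV-hGRβ array than on each of the 6 other arrays, as were 6.39% of all genes, and Cxcl1 and Cxcl16 were not. The count of 5 depended on single arrays: it was 0 without AAV-GFP replicate 1 or without AAV-hGRβ replicate 1, 2 without AAV-GFP replicate 2, AAV-GFP replicate 3 or AAV-hGRβ replicate 3, and 5 without AAV-hGRβ replicate 2. With the slide as a random block it was 3, with the scan day as a block 6, and on the arrays of the first scan day alone 0.

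**Figure D1:**
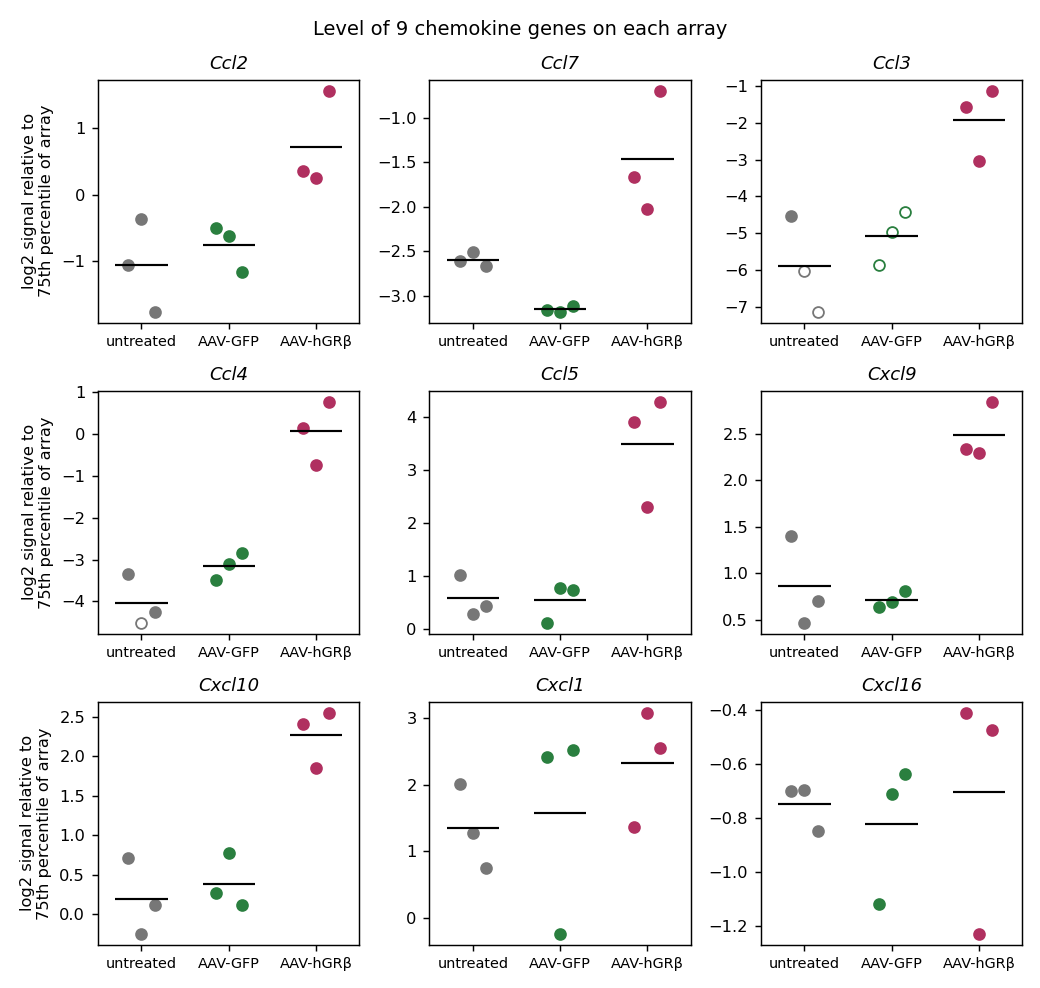
Level of each of the 9 chemokine genes on the 9 arrays, as log2 signal relative to the array's 75th percentile (vertical axes differ between panels). Each point is 1 array, in order of replicate number from left to right within a group, the horizontal line is the group mean, and hollow points were not well above background. In 7 panels the 3 AAV-hGRβ points lie above all 6 others, and in the Cxcl1 and Cxcl16 panels they do not.

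Ccl4 (macrophage inflammatory protein 1β), an attractant of T cells and macrophages, rose in AAV-hGRβ liver. Its probe (mm7, chr11:83734455-83734514, plus strand) read -3.35, -4.51 and -4.25 on the untreated arrays, -3.48, -3.10 and -2.85 on the AAV-GFP arrays and 0.14, -0.73 and 0.77 on the AAV-hGRβ arrays. The AAV-hGRβ arrays stood more than 2 log2 units above every other array, while the AAV-GFP and untreated values overlapped, and the probe was not well above background on untreated replicate 3. The difference from AAV-GFP was 3.21 ± 0.42 (SE, n = 3 per group), or 9.24-fold, with an adjusted p of 0.0121 (limma). It lost its call without AAV-GFP replicate 1 (adjusted p = 0.0685) or AAV-hGRβ replicate 1 (adjusted p = 0.0672), and was 3.31 on the first scan day and 3.00 on the second. Under other processing choices and single scan days the Ccl4 difference from AAV-GFP ran from 1.16 to 3.31. It passed in 9 of those 13 tests, so the size of the fold depends on the processing.

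Ccl3 (macrophage inflammatory protein 1α), whose probe lies on the minus strand beside Ccl4 (chr11:83717761-83717820), read -4.54, -6.02 and -7.12 in untreated liver, -5.85, -4.96 and -4.41 in AAV-GFP liver and -1.57, -3.04 and -1.14 in AAV-hGRβ liver. The gene was well above background on all 3 AAV-hGRβ arrays, on none of the AAV-GFP arrays and on 1 untreated array, replicate 2. AAV-GFP and untreated arrays overlapped, AAV-hGRβ arrays stood above both, and AAV-hGRβ liver was at least 6.94-fold above AAV-GFP liver, where the background sets the lower value. The fitted difference of 3.16 ± 0.71 (SE) had an adjusted p of 0.0972 (limma) and did not pass, with a 95% interval of 1.55 to 4.76. It passed when arrays were scaled to their medians (adjusted p = 0.00886) and with the scan day as a block, and was -0.02 with the normexp background correction. Against untreated liver, which 2 arrays measured only as below background, the difference was 3.97 with an adjusted p of 0.0275 (limma).

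Ccl5 (RANTES), a ligand of Ccr1 and Ccr3, was read by 2 probes. The probe with the higher mean (chr11:83595699-83595758, minus strand) gave 1.01, 0.28 and 0.42 in untreated liver, 0.11, 0.77 and 0.74 in AAV-GFP liver and 3.91, 2.30 and 4.29 in AAV-hGRβ liver. The lowest AAV-hGRβ array, replicate 2, was still above all 6 other arrays, and AAV-GFP and untreated liver overlapped throughout. Ccl5 rose by 2.96 ± 0.48 (SE), or 7.79-fold, against AAV-GFP (limma adjusted p = 0.0299). The other probe (chr11:83595850-83595905) gave 2.99 for the same comparison and 3.02 against untreated liver, where the first gave 2.93. The call against AAV-GFP was kept in 1 of 6 fits that each left out 1 array, the one without AAV-hGRβ replicate 2, while the difference stayed between 2.57 and 3.56.

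Of the Ccr2 ligands, Ccl7 (monocyte chemoattractant protein 3) passed the test against AAV-GFP. Its probe with the higher mean (chr11:82128577-82128636, plus strand) read -2.61, -2.51 and -2.67 in untreated liver, -3.15, -3.18 and -3.11 in AAV-GFP liver and -1.67, -2.03 and -0.70 in AAV-hGRβ liver. AAV-hGRβ liver was highest and AAV-GFP liver lowest, with no overlap between any pair of groups. The difference from AAV-GFP was 1.68 ± 0.30 (SE), or 3.21-fold (limma adjusted p = 0.0429), and that from untreated liver was 1.13 (adjusted p = 0.0751). The call against AAV-GFP held in 2 of 6 fits that left out 1 array, those without AAV-hGRβ replicate 2 or replicate 3. The second Ccl7 probe (chr11:82128729-82128788) read -3.07, -6.09 and -7.19 in untreated liver, -4.06, -3.94 and -4.05 in AAV-GFP liver and -1.39, -1.55 and -0.12 in AAV-hGRβ liver. Tested among all probes, it gave 3.00 against AAV-GFP (adjusted p = 0.241) and 4.43 against untreated liver (adjusted p = 0.044). In that same test over all probes the first probe missed the threshold against AAV-GFP (adjusted p = 0.0527). Both probes placed AAV-hGRβ liver on top, but they ordered AAV-GFP and untreated liver in opposite ways, and the second was not well above background on 2 untreated arrays. Local background was uneven here: it read 2783 beside the first probe's spot on untreated replicate 3 and 31630 beside the second probe's on untreated replicate 2, where those arrays' medians were 51 and 69. On the AAV-GFP and AAV-hGRβ arrays the local background beside the spots of both probes was 46 to 81. With normexp, which subtracts the local background, the Ccl7 difference from AAV-GFP was -0.01, and the cause was not tested.

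Ccl2 (monocyte chemoattractant protein 1) was spotted 10 times on each array (chr11:82118723-82118782, plus strand), and the spots of an array spread by an SD of 0.06 to 0.16. It read -1.07, -0.37 and -1.77 in untreated liver, -0.50, -0.63 and -1.18 in AAV-GFP liver and 0.35, 0.24 and 1.57 in AAV-hGRβ liver. Every AAV-hGRβ array was above every other array, and the untreated and AAV-GFP arrays were interleaved. The difference from AAV-GFP was 1.49 ± 0.44 (SE), or 2.82-fold, with a 95% interval of 0.49 to 2.49 and an adjusted p of 0.215 (limma), so it did not pass. Against untreated liver it was 1.79 (adjusted p = 0.0618), which passed in 3 of 14 other fits, among them the one with the scan day as a block. Spread between arrays of a group exceeded the spread between spots of an array.

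Cxcl9 and Cxcl10, interferon-inducible ligands of Cxcr3, rose in AAV-hGRβ liver. Cxcl9 (monokine induced by interferon-gamma; chr5:92310412-92310471, minus strand) read 1.40, 0.47 and 0.70 in untreated liver, 0.64, 0.69 and 0.81 in AAV-GFP liver and 2.33, 2.29 and 2.84 in AAV-hGRβ liver. Its AAV-hGRβ arrays were close to each other and above all others. The rise over AAV-GFP was 1.77 ± 0.26 (SE), or 3.42-fold (limma adjusted p = 0.0227). Cxcl10 (interferon-inducible protein 10; chr5:92334002-92334061, minus strand) read 0.71, -0.25 and 0.12 in untreated liver, 0.27, 0.77 and 0.12 in AAV-GFP liver and 2.40, 1.85 and 2.55 in AAV-hGRβ liver. Again no AAV-hGRβ array overlapped another group, and the other groups overlapped each other. Cxcl10 rose by 1.88 ± 0.30 (SE), or 3.68-fold, over AAV-GFP (limma adjusted p = 0.0299). Each of these calls held in 2 of 6 fits that left out 1 array: that of Cxcl9 without AAV-GFP replicate 3 or AAV-hGRβ replicate 2, and that of Cxcl10 without AAV-GFP replicate 2 or AAV-hGRβ replicate 2.

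Cxcl1 (KC), the neutrophil attractant, varied widely within groups. Its probe (chr5:90882059-90882118, plus strand) read 2.01, 1.28 and 0.76 in untreated liver, 2.42, -0.24 and 2.53 in AAV-GFP liver and 1.37, 3.08 and 2.56 in AAV-hGRβ liver. AAV-GFP replicate 2 was the lowest of the 9 arrays and the 3 groups overlapped. The difference from AAV-GFP was 0.76 ± 0.75 (SE), with a 95% interval of -0.94 to 2.47 and an adjusted p of 0.789 (limma). It was 1.73 on the first scan day and -1.16 on the second, and -0.14 without AAV-GFP replicate 2.

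Cxcl16, the ligand of Cxcr6, was read by 2 probes that gave similar differences from AAV-GFP. The probe with the higher mean (chr11:70535852-70535911, minus strand) read -0.70, -0.70 and -0.85 in untreated liver, -1.12, -0.71 and -0.64 in AAV-GFP liver and -0.41, -1.23 and -0.48 in AAV-hGRβ liver. AAV-hGRβ replicate 2 was the lowest array and the other AAV-hGRβ arrays the highest. The difference from AAV-GFP was 0.12 ± 0.25 (SE), with a 95% interval of -0.44 to 0.68 and an adjusted p of 0.913 (limma). The second probe, whose mm7 position spans 2742 bases (chr11:70537593-70540334), gave 0.25 for this comparison. Against untreated liver the probes gave 0.04 and 1.00, and neither passed.

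**Figure D2:**
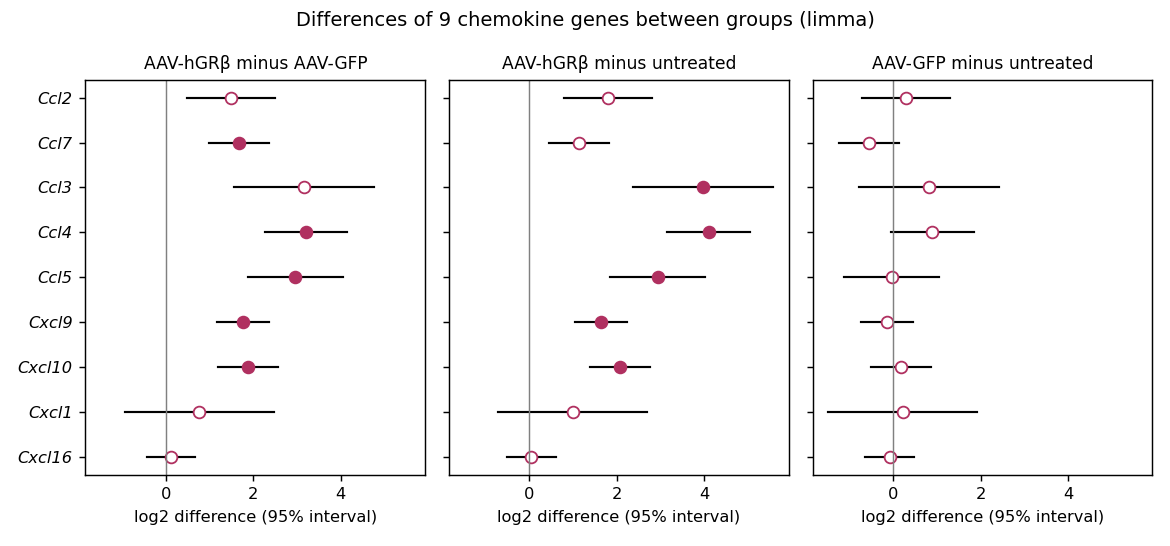
Log2 differences of the 9 chemokine genes in the 3 comparisons, with 95% intervals from limma over 3 arrays per group. Filled points passed an adjusted p of 0.05. In all, 7 genes have intervals above 0 in the left and middle panels, 5 of them filled in each, and all intervals in the right panel include 0.

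Against untreated liver 5 of the 9 genes rose in AAV-hGRβ liver, where 2.50% of all genes were called higher and 0.780% lower: Ccl3, Ccl4, Ccl5, Cxcl9 and Cxcl10. The median difference was 1.79, beside 0.09 over all genes, and 7 genes did not overlap between the groups, against 14.7% of all genes. This comparison shares its AAV-hGRβ arrays with the one above. Ccl4 differed by 4.10 (17.2-fold, limma adjusted p = 0.00267), Ccl5 by 2.93 (adjusted p = 0.0195), Cxcl10 by 2.07 (adjusted p = 0.0120) and Cxcl9 by 1.63 (adjusted p = 0.0184). Cxcl1 differed by 0.99 (95% interval -0.72 to 2.69) and Cxcl16 by 0.04 (-0.51 to 0.60), and neither passed. The count of 5 fell to 3 without AAV-hGRβ replicate 1 and to 1, Ccl4, without AAV-hGRβ replicate 3, untreated replicate 3 or untreated replicate 4. With the slide as a random block it was also 1, Ccl4.

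The vector control itself was compared with untreated liver. None of the 9 chemokine genes was called by limma in AAV-GFP against untreated liver, and 0% of all genes were called higher and 0% lower. At an unadjusted p under 0.05 there were 0 of the 9 and 1648 of the 16792 genes. Of the 9 differences 5 were above 0 and 4 below, with a median of 0.19. Ccl4 was 0.89 higher (95% interval -0.05 to 1.84), Ccl3 was below background on 5 of these 6 arrays, and Ccl2, Cxcl1 and Cxcl10 were 0.30, 0.22 and 0.19 higher. Cxcl9, Cxcl16 and Ccl5 differed by -0.14, -0.07 and -0.03. Ccl7 was the single gene whose groups did not overlap, lower in AAV-GFP liver by 0.55 (95% interval -1.23 to 0.13), as were 9.21% of all genes, and its second probe was 1.43 higher. For the other 8 genes the AAV-GFP and untreated arrays overlapped on the probe that stands for the gene. On the second Cxcl16 probe they did not: it read -0.89, -1.41 and -1.93 in untreated and -0.84, -0.58 and -0.57 in AAV-GFP liver, 0.75 higher (95% interval -0.07 to 1.56). On the probes that stand for the genes, the order of mean levels was AAV-hGRβ above AAV-GFP above untreated for Ccl2, Ccl3, Ccl4, Cxcl1 and Cxcl10, and AAV-hGRβ above untreated above AAV-GFP for Ccl5, Ccl7, Cxcl9 and Cxcl16, with the lower pair not separated by the test in any of them and, for Ccl2, Cxcl1 and Cxcl16, no pair separated.

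Within the AAV-hGRβ group the chemokine genes varied together between arrays. Replicate 3 was the highest of the group for 7 of the 9 genes, and replicate 2 the lowest for 8 of the 9, the exception being Cxcl1. This order was not particular to chemokine genes: Cd8a, Gzma, Gzmb and Nkg7, described below, were also highest on replicate 3 and lowest on replicate 2. Other genes differed, such as Ifnb1, lowest on replicate 3, and the share of all genes with this order was not counted. The arrays also differed in brightness: median processed intensity was 79.0, 38.1 and 72.9 for replicates 1, 2 and 3, and 82.0%, 60.5% and 68.4% of their gene spots were well above background. The part of brightness in the order of the replicates was not tested. For Ccl5 the gap between replicates 2 and 3 was wide, 2.30 against 4.29, and for Cxcl9 narrow, 2.29 against 2.84. The other groups also had arrays that were often highest: untreated replicate 2 and AAV-GFP replicate 3, each for 6 of the 9 genes. Both were scanned on the second day, as was AAV-hGRβ replicate 1, which was highest for 1 gene. Over all genes, the deviations of those 2 arrays from their group means correlated at 0.569. The part of the scan day was not tested.

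**Figure D3:**
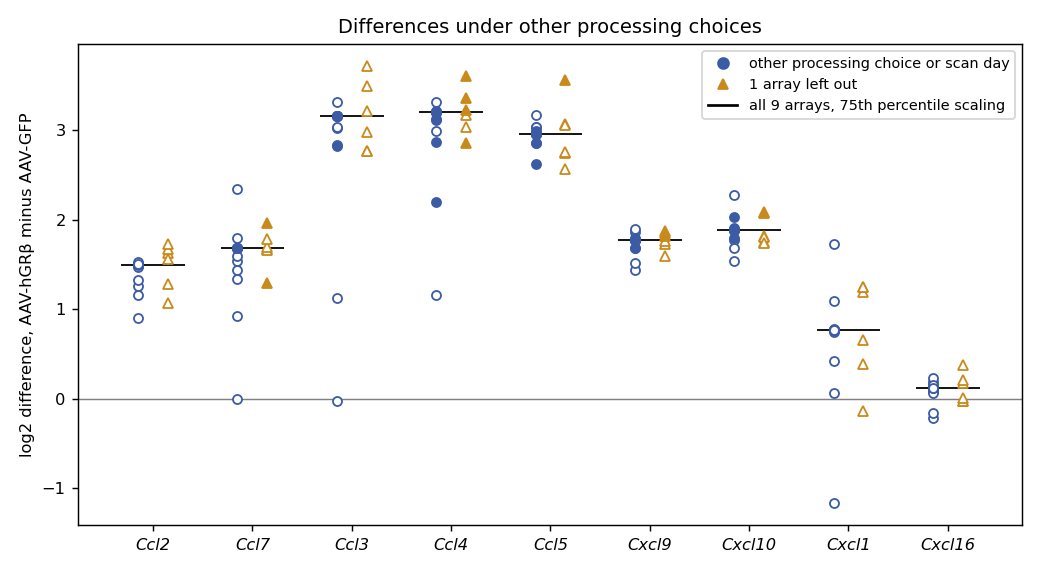
Log2 difference between AAV-hGRβ and AAV-GFP liver for each chemokine gene, with the value over all 9 arrays as a line, other processing choices and single scan days as circles, and fits that left out 1 array as triangles. Filled symbols passed an adjusted p of 0.05; the second scan day has 1 array per group and no test. Differences of Ccl2, Ccl4, Ccl5, Cxcl9 and Cxcl10 were above 0 throughout, whereas Ccl3, Ccl7, Cxcl1 and Cxcl16 each had at least 1 value below 0.

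The other chemokine ligands were examined as a list of 29 genes, of which 27 are on the array and 16 had a probe above the background filter. None of the 16 was called by limma against AAV-GFP, 10 were above 0 and 6 below, and the median was 0.33. Against untreated liver 3 of the 16 rose and none fell, where 2.50% of all genes were called higher. These were Ccl8 by 2.31 (adjusted p = 0.0382), Ccl12 by 2.11 (adjusted p = 0.0479) and Ccl6 by 2.03 (adjusted p = 0.0301), named after their values were seen. In untreated liver Ccl8 and Ccl12 were each above background on 1 array only. Ccl8 (monocyte chemoattractant protein 2) was below the background limit throughout AAV-GFP liver, and AAV-hGRβ liver exceeded it by at least 4.24-fold (adjusted p = 0.0912). Ccl12, a further Ccr2 ligand of the mouse, differed from AAV-GFP by 1.74 (adjusted p = 0.169), and Ccl6 by 1.10 (adjusted p = 0.278). In AAV-GFP against untreated liver 13 of the 16 were above 0 and 3 below, with a median of 0.58, and none was called. Ccl6 was 0.92 higher there (limma adjusted p = 0.489), and its groups did not overlap.

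The receptors of the 9 ligands were next. Of 23 chemokine receptor genes on the array, 16 were tested, 14 were above 0 and 2 below against AAV-GFP, the median was 0.79, and none was called by limma. Ccr2, the receptor of Ccl2 and Ccl7, read -2.55, -3.50 and -3.65 in untreated liver, -3.05, -3.05 and -2.66 in AAV-GFP liver and -1.51, -1.90 and -0.96 in AAV-hGRβ liver. AAV-hGRβ liver overlapped neither other group, which overlapped each other. The difference was 1.46 from AAV-GFP (adjusted p = 0.107) and 1.77 from untreated liver (adjusted p = 0.0332). Ccr2 was the only receptor called against untreated liver, where 2.50% of all genes were called higher. Cxcr6, the Cxcl16 receptor, differed from AAV-GFP by 1.29 (adjusted p = 0.329), and Cxcr3, the receptor of Cxcl9 and Cxcl10, by 1.00 (adjusted p = 0.296). Ccr3, an eosinophil receptor of Ccl5 and Ccl7, differed by 0.79 (adjusted p = 0.569). Ccr1 and Cxcr2 had no probe above the background filter and were not tested.

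**Figure D4:**
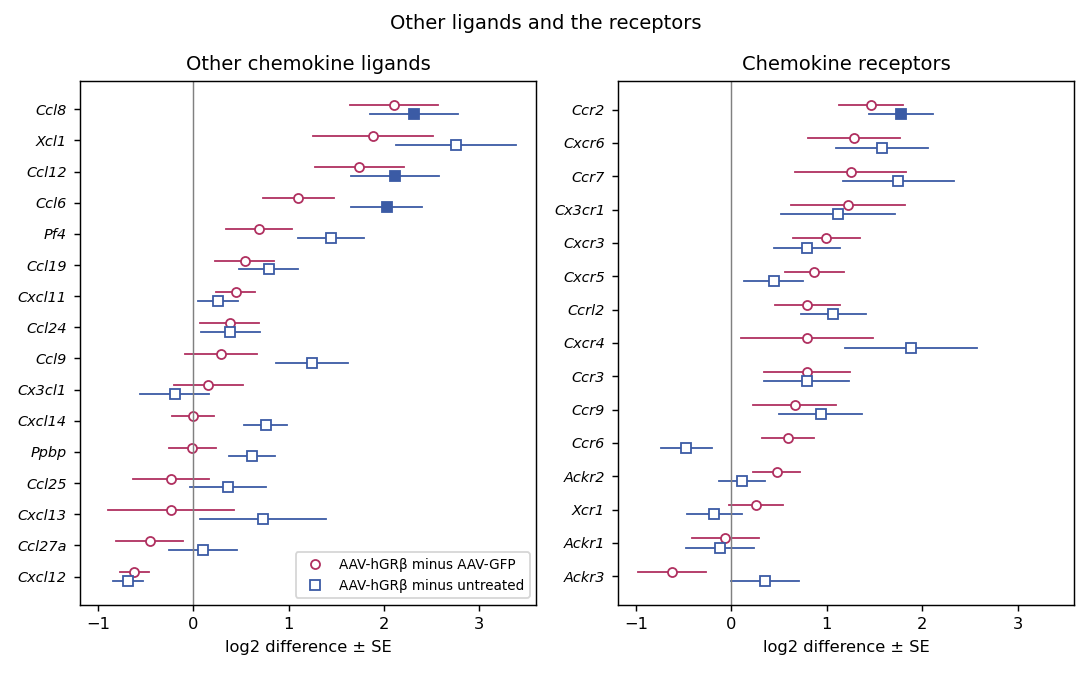
Log2 differences, with the SE of the limma fit, of the 16 other chemokine ligands and of 15 of the 16 chemokine receptors tested, in AAV-hGRβ liver against AAV-GFP (circles) and untreated (squares) liver. Filled symbols passed an adjusted p of 0.05: no circle is filled, and the filled squares are Ccl8, Ccl12, Ccl6 and Ccr2.

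Of 27 inducers and transcription factors of chemokine genes, 24 were tested and 3 rose against AAV-GFP, with none lower and a median of 0.46. Of all genes, 0.822% were called higher in this comparison. Ifnb1 (interferon-β) lay below the background limit in AAV-GFP and untreated liver and read -2.41, -2.44 and -2.68 in AAV-hGRβ liver, at least 5.09-fold above AAV-GFP (limma adjusted p = 0.000652). Irf7, a transcription factor of the interferon response, read 0.96, 1.07 and 0.39 in AAV-GFP liver and 3.41, 3.20 and 3.75 in AAV-hGRβ liver, a rise of 2.64 (adjusted p = 0.0033). Tnf (tumour necrosis factor), a cytokine that activates NF-κB, rose by 1.53 (adjusted p = 0.0299), though it was above background on 1 AAV-GFP array only. Ifng (interferon-gamma) differed by 1.50 (adjusted p = 0.35) and the NF-κB subunit genes Nfkb1, Rela, Nfkb2 and Relb by -0.03, -0.11, 0.45 and 0.73, none of which passed. Ifnb1, Irf7 and Tnf also rose against untreated liver. Of 11 genes of chemokine processing and clearance 8 were tested, and none was called by limma against AAV-GFP or untreated liver.

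Leukocytes both make and follow chemokines, and some of their marker genes rose in AAV-hGRβ liver. Of 21 T and NK cell markers tested, 4 rose against AAV-GFP (Cd8a, Gzma, Gzmb and Nkg7), where 0.822% of all genes were called higher. In all, 20 of the 21 were above 0, with a median of 1.39. Their summed level, in multiples of the array's 75th percentile, was 5.81 to 7.80 in AAV-GFP liver, 4.54 to 6.72 in untreated liver and 9.49 to 17.7 in AAV-hGRβ liver. Without the 4 called genes it was 5.25 to 6.93 in AAV-GFP and 6.92 to 9.77 in AAV-hGRβ liver. Cd8a, which encodes the α chain of the CD8 co-receptor, lay below the background limit in AAV-GFP and untreated liver and was at least 12.6-fold above AAV-GFP liver in AAV-hGRβ liver (limma adjusted p = 0.00841). Gzma, a granzyme, rose by 3.72 (adjusted p = 0.0105). Other markers of the list stayed near AAV-GFP liver: Cd8b1, Cd3e, Prf1 and Zap70 differed by 0.005, 0.02, 0.19 and -0.29, and none was called. Zap70 had the highest mean level of the list in every group, 0.90 in untreated, 1.66 in AAV-GFP and 1.37 in AAV-hGRβ liver, and weighs most in the sums without the called genes.

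The marker lists that follow were also set against AAV-GFP, where 0.822% of all genes were called higher. Of 13 monocyte and neutrophil markers 1 rose, Ly6c1, by 2.84 (limma adjusted p = 0.00645). The list's summed level was 10.9 to 18.3 in untreated, 15.8 to 21.0 in AAV-GFP and 57.9 to 95.5 in AAV-hGRβ liver. Most of that was Ly6c1: the other 12 genes summed to 5.46 to 12.4, 5.93 to 13.6 and 13.7 to 25.5. Of the 13 differences 12 were above 0 and 1 below, and they were uneven: Itgam differed by 0.11 and Csf3r by -0.47. Of 18 Kupffer cell and macrophage markers 1 rose, Mpeg1 (perforin-2), by 1.55. The list summed to 144 to 220 in untreated, 170 to 353 in AAV-GFP and 374 to 577 in AAV-hGRβ liver. Without Mpeg1 the sums were 126 to 205, 153 to 333 and 324 to 515, and those of AAV-GFP and AAV-hGRβ liver overlapped. The brightest genes of the list were Lyz2 and Cd5l, which differed by 0.26 and 0.97 and were not called. Marco had no usable value on AAV-GFP replicate 3 and is missing from that array's sum. Of 11 dendritic cell markers 2 rose, Ly6d by 4.17 and Bst2 by 1.23, and the list summed to 80.0 to 119 in untreated, 96.0 to 137 in AAV-GFP and 262 to 374 in AAV-hGRβ liver. Nearly all of it was Bst2 and Ly6d: the other 9 genes summed to 1.26 to 1.63, 1.25 to 2.11 and 2.23 to 3.12. None of 9 B and plasma cell markers was called, with a median of 0.68 and sums of 2.57 to 4.03 in untreated, 2.64 to 4.67 in AAV-GFP and 4.87 to 6.57 in AAV-hGRβ liver. None of 14 hepatocyte, 12 endothelial, 12 stellate cell and 6 cholangiocyte markers was called by limma against AAV-GFP, with medians of -0.29, -0.25, -0.21 and 0.09. All 14 hepatocyte and all 12 endothelial markers were below 0 there. Against untreated liver 7 hepatocyte markers were above 0 and 7 below, with 1 called lower, and 4 endothelial markers were above 0 and 8 below. In AAV-GFP against untreated liver 12 of the 14 hepatocyte markers were above 0. Of the 23 T and NK cell markers on the array, 3 were never above background in AAV-GFP liver and 1 in AAV-hGRβ liver, and each Kupffer cell marker on the array was above background on at least 1 array of every group. The part of leukocyte markers in the chemokine differences was not tested.

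For each chemokine gene the 2 other genes with the most similar pattern over the 9 arrays were found by Pearson's r, a description over points that fall in 3 groups of 3 arrays. The 9 chemokine genes themselves, genes named only by an identifier and genes without a value on every array were left out of the search. Genes left out may therefore lie nearer than those named. Ccl4 was nearest to Gzma (r = 0.997) and Eda2r (r = 0.992), and Ccl5 to the cytotoxic granule gene Nkg7 (r = 0.991) and the T cell kinase gene Lck (r = 0.989). Ccl3 was nearest to Clec5a, a myeloid lectin receptor (r = 0.990), and Mmp13, a collagenase (r = 0.985). Cxcl10 was nearest to Ly6c1 (r = 0.990) and Sapcd2 (r = 0.989), and Cxcl9 to the MHC class I gene H2-T22 (r = 0.983) and Pik3r3 (r = 0.977). Ccl7 was nearest to Traf1 (r = 0.968) and Gbp9, a guanylate-binding protein gene (r = 0.962), and Ccl2 to the leukocyte integrin activator Fermt3 (r = 0.959) and Rgs19 (r = 0.954). The genes nearest to Cxcl1 were Zfp971 (r = 0.966) and P2ry4 (r = 0.944), and those nearest to Cxcl16 were Igh-VJ558 (r = 0.945) and Fkbp10 (r = 0.919).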

How the data were processed

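Liver RNA of 9 samples was labelled with Cy3 and hybridised to single-colour arrays. The authors' deposited intensity values are processed signals of Agilent Feature Extraction 9.5, background-subtracted and detrended within each array, per the file headers and the submitters' processing notes. Spot flags are other deposited columns. The series table held the same intensities (largest difference 0; column medians 34.2 to 75.6).

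Each array's log2 signal was set to its 75th percentile, outlier spots were dropped, spots of a probe averaged, and 24273 of 41174 gene probes kept, those above the background limit on each array of 1 or more groups. A gene was represented by its probe of highest mean. RefSeq named 33013 probes, and 8161 kept the files' name. limma 3.58.1 (R 4.3.3) was fitted to the 9 arrays together (6 residual degrees of freedom), two-sided, with Benjamini-Hochberg adjustment over 16792 genes per comparison and a threshold of 0.05, and tested on simulated data. "At least" folds set a dim probe, on each array, to the higher of its own signal and the lowest signal well above background.

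Named are all 9 chemokine genes, receptors of these ligands, up to 4 called genes per other list, some uncalled genes beside them and 2 nearest patterns per gene. Genes and lists were chosen with earlier results of these data known. Nothing says that a group's arrays came from separate animals, so p-values measure only the spread between these samples, and 3 arrays per group limit precision. Alternatives were background correction, scaling, filters, probe choice, batches, replicate block and leaving out each array. Some genes of the lists are not reported here. Exon and UTR annotation of mm7 was not used here.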

Additional observations from a re-analysis of the deposited data

How the results depend on the processing

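Counts of chemokine genes called against AAV-GFP (5 with all arrays) were 4 with every probe tested alone, probes averaged, quantile normalization, the filter on all 9 arrays, or normexp with bright local backgrounds replaced, 5 with the series table, and 6 with the scan day as a block. They were 3 with median scaling, the compared groups alone or the slide as a random block, and 0 with no filter on dim probes, plain normexp or the first scan day alone. Against untreated liver the count (5) was 3 with plain normexp or the compared groups alone, 1 with no filter or the slide block, and kept within 1.5 times under the others except the replicate block. No chemokine gene was called lower, or called between AAV-GFP and untreated liver, under any alternative. Leaving out 1 array gave 0 to 5 against AAV-GFP and 1 to 5 against untreated liver. Same-numbered AAV-GFP and AAV-hGRβ arrays deviated with correlations of 0.012, 0.242 and 0.006, so the numbers were not taken as pairs; with the replicate block 0 chemokine genes were called in either comparison, and 2 genes were higher and 0 lower against AAV-GFP, 1 higher and 0 lower against untreated liver.

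Over all genes, the count higher against AAV-GFP (138) was 77 with median scaling, 28 with no filter, 18 with normexp, 71 with the compared groups alone, 3 on the first scan day, 241 with the scan day as a block, 73 with the slide block and 38 to 152 without 1 array. The count lower (13) was 8 with every probe alone, 7 with quantile normalization, 4 with the compared groups, 3 with the slide block, 2 with no filter, 0 with normexp or on the first scan day and 2 to 13 without 1 array. Against untreated liver the count higher (420) was 75 with no filter, 49 with normexp, 275 with the compared groups, 2927 on the first scan day, 974 with the scan day block, 55 with the slide block and 87 to 1386 without 1 array. The count lower (131) was 86 with probes averaged, 258 with median scaling, 9 with no filter, 0 with normexp, 329 with bright backgrounds replaced, 267 with the filter on all 9 arrays, 32 with the compared groups, 1843 on the first scan day, 290 with the scan day block, 4 with the slide block and 7 to 654 without 1 array. Between AAV-GFP and untreated liver the counts (0 and 0) were 2 higher and 2 lower with median scaling, 1 lower with quantile normalization, on the first scan day or with the scan day block, and 0 to 1 lower without 1 array. Median scaling moved the median of all genes to -0.32 against AAV-GFP and -0.24 against untreated liver.

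Against AAV-GFP the sign turned with normexp for Ccl3 (-0.022), Ccl7 (-0.0077) and Cxcl16 (-0.16), with median scaling for Cxcl16 (-0.22) and on the second scan day for Cxcl1 (-1.16). Without 1 array Cxcl1 ran from -0.14 to 1.25, below 0 without AAV-GFP replicate 2, and Cxcl16 from -0.029 to 0.38, below 0 without AAV-GFP replicate 1 or AAV-hGRβ replicate 1. With bright local backgrounds replaced Ccl3 was 1.13 and Ccl7 0.93. Against untreated liver Cxcl1 was -0.65 on the second scan day, and Cxcl16 was -0.29 with median scaling, -0.19 with normexp, -0.0058 with the replicate block, -0.079 on the first scan day and -0.10 to 0.31 without 1 array, below 0 without AAV-hGRβ replicate 1, AAV-hGRβ replicate 3 or untreated replicate 4. Between AAV-GFP and untreated liver, where nothing was called, Ccl2 was -0.027 with the replicate block, -0.11 on the second scan day and -0.053 to 0.65 without 1 array. Ccl5 was 0.088 on the first scan day and -0.18 to 0.19 without 1 array, and Ccl7 was 0.44 with probes averaged and 1.02 with normexp. Cxcl1 was -0.044 with the replicate block and -0.26 to 1.13 without 1 array. Cxcl10 was -0.59 on the second scan day and -0.031 to 0.45 without 1 array. Cxcl16 was 0.34 with probes averaged, 0.062 on the second scan day and -0.17 to 0.073 without 1 array, and Cxcl9 was 0.084 on the first scan day and -0.34 to 0.13 without 1 array. In all, 439 single-gene differences kept direction and side of the threshold, 80 lost the call, 6 gained it and 36 turned. The cause was not tested. Signal close to background limits Ccl3 and the second Ccl7 probe.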
